A study of Mus musculus with 7 samples.

Results

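Netrins are guidance proteins related to laminins, and the genes described here are the mouse netrins and netrin receptors: the secreted netrins Ntn1, Ntn3 and Ntn4, the membrane-anchored netrins Ntng1 and Ntng2, and the receptors Dcc, Neo1, Unc5a, Unc5b and Unc5c. They were taken by gene symbol from the count tables, 10 of 46333 genes, and all 10 were among the 21542 genes that passed the filter on low counts. RNA was sequenced from neurons that had been isolated from whole brains of adult female mice by magnetic removal of microglia, oligodendrocytes and astrocytes. The comparison asks how the transcripts of these neurons differ when they lose the interleukin-4 receptor, through which a cytokine of allergic and anti-parasite immunity acts. There were 3 libraries from Syn Cre+ x IL-4R fl/fl mice (cre+) and 4 from Syn Cre- x IL-4R fl/fl mice (cre-), which were littermates. Both genotypes carried floxed alleles of Il4ra, the gene of the receptor's alpha chain. The cre+ mice also carried a Cre recombinase driven by the neuronal promoter of synapsin 1, so that cells of other types that remain after the isolation are not its target.

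A secreted netrin can attract a growing axon through DCC and repel it through an UNC5 receptor, alone or together with DCC. Neogenin (Neo1) is the close relative of DCC and also binds the repulsive guidance molecules. Netrin-G1 and netrin-G2 do not bind these receptors: they sit on axons by a lipid anchor and bind the synaptic adhesion proteins NGL-1 (Lrrc4c) and NGL-2 (Lrrc4). In the adult brain, netrin-1 and DCC are known at synapses, and outside neurons UNC5B is known in blood vessels and netrin-4 in basement membranes.

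The libraries held 68213223 to 94376841 counts. The whole-gene level of Il4ra, at 24.4 to 29.5 CPM (counts scaled to library size) in cre+ and 20.03 to 29.6 CPM in cre- libraries, does not check the deletion, which removes a few exons only. The neuronal markers Rbfox3, Snap25 and Syt1 were detected in every library. However, 15 endothelial markers summed to 15845 to 22785 CPM in cre+ and 10519 to 14597 CPM in cre- libraries, with no overlap, against 1250 to 2438 CPM and 2383 to 4029 CPM for 13 pan-neuronal markers. Over all genes, DESeq2 called 6.70% higher and 5.48% lower in cre+. It called 11 of the 15 endothelial markers higher and 4 of the 13 pan-neuronal markers lower. Of 10 markers each, it also called 6 mural, 4 fibroblast, 5 astrocyte, 3 oligodendrocyte and 1 ependymal or choroid plexus marker higher and 7 immature neuron markers lower in cre+, while it called 0 microglia markers and 0 markers of oligodendrocyte precursors. Counts of 0 and 1 of 10 markers lie near the shares over all genes. The library cre+ replicate 1 stood apart, with the highest endothelial and the lowest pan-neuronal sum of the 7. In bulk RNA, fewer cells of a type and less RNA per cell cannot be told apart.

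The edgeR quasi-likelihood test called 0 of the 10 genes at an adjusted p of 0.05, and it called 0% of all genes tested. At an unadjusted p below 0.05, edgeR gave 3 genes higher in cre+ (Ntn1, Ntn4 and Unc5b) and 2 lower (Ntng2 and Unc5a), where 10.2% of all genes were higher and 9.75% lower. DESeq2, the test the study used, called Ntn1 and Unc5b higher and Unc5a lower, beside 6.70% of all genes called higher and 5.48% called lower. The libraries of the genotypes did not overlap for 4 of the 10 genes, Ntn1 and Unc5b on the higher and Ntng2 and Unc5a on the lower side, whereas 8.94% of all genes were higher and 9.72% lower without overlap. The median log2 fold change (cre+ minus cre-) of the 10 genes was -0.11, and that of all genes tested was -0.04. The log2 fold change was above 0 for 4 of the 10 genes and below 0 for 6, and the called genes were a ligand and a receptor on the higher side and another receptor of the same family on the lower side.

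**Figure D1:**
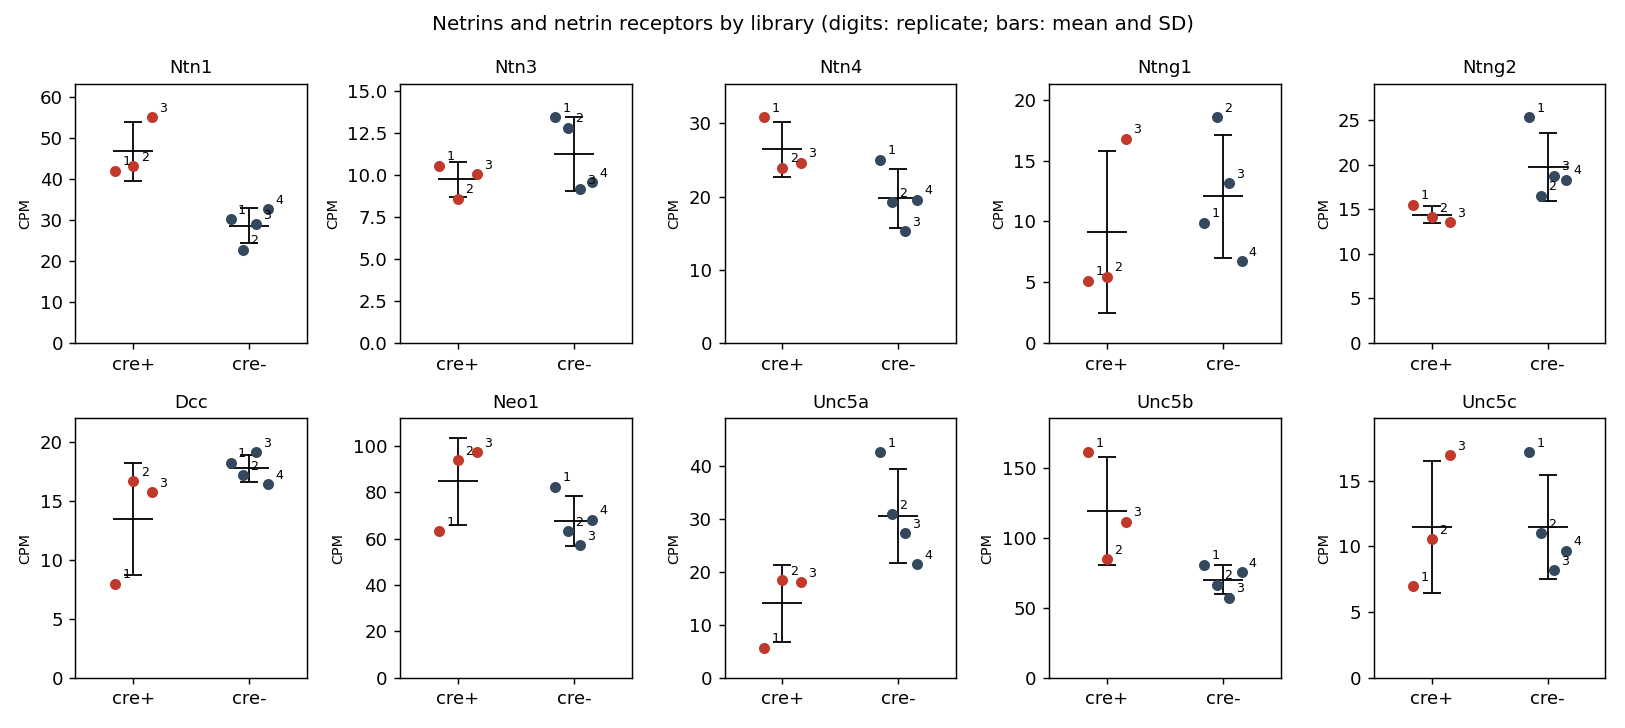
CPM (vertical axes, from 0) of each of the 10 genes in the 3 cre+ (red) and 4 cre- (dark blue) libraries, where digits name the replicate and bars give the mean and SD. The genotypes do not overlap for Ntn1 and Unc5b (higher in cre+) or for Ntng2 and Unc5a (lower in cre+), and cre+ replicate 1 is the highest Unc5b library and the lowest Unc5a, Dcc and Unc5c library.

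The promoters of the 3 genes called by DESeq2 are shown because these genes moved in opposite directions. Each is the window from 250 bases before to 50 bases after the start of the canonical transcript (GENCODE M39, GRCm39), printed 5′ to 3′ on the gene's strand, with CG dinucleotides in capitals. The window of Ntn1 is chr11:68277971-68278270 on the minus strand, that of Unc5b is chr10:60667347-60667646 on the minus strand, and that of Unc5a is chr13:55096547-55096846 on the plus strand. The canonical start of Ntn1 lies inside the annotated gene, which reaches further upstream.
Ntn1: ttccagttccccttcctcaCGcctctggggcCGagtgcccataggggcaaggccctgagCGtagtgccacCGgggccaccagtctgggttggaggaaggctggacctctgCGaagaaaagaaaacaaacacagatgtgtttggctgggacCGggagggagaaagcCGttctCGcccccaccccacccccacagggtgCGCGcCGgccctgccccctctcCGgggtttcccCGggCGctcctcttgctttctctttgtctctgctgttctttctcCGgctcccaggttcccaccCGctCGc
Unc5b: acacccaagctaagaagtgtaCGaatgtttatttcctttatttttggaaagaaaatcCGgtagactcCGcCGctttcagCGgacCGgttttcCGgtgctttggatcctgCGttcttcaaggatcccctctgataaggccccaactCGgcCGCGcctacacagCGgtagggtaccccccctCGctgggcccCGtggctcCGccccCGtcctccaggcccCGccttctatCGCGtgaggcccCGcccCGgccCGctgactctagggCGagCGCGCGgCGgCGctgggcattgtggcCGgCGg
Unc5a: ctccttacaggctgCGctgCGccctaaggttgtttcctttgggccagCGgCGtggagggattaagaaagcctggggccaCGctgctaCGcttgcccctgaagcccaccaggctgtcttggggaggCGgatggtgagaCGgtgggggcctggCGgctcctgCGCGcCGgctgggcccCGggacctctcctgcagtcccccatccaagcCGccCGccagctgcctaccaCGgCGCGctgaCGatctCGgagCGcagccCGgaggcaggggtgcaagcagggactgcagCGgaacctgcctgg
These windows held 17 CG dinucleotides for Ntn1, 30 for Unc5b and 23 for Unc5a, and their GC content was 64.7%, 63.7% and 69.7%. Over the same windows of 21770 protein-coding genes the medians were 11 CG dinucleotides and 54.3% GC, and 35.5%, 9.6% and 21.2% of promoters held at least as many CG dinucleotides as those of Ntn1, Unc5b and Unc5a. Both genes on the higher side and the gene on the lower side thus had windows above the median in CG content. Since the interleukin-4 receptor signals through STAT6, the spaced palindromes TTCNNNNGAA and TTCNNNGAA, of the kind that STAT proteins bind, were searched on both strands (a window may hold both). Neither was found in the windows of the 9 genes examined, the 10 without Dcc, while 6.81% and 8.82% of all promoters held them. No match means only that these letters do not occur in these 300 bases.

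Of the secreted netrins, Ntn1 was higher in the cre+ libraries by the DESeq2 test. Ntn1 encodes netrin-1, the founding ligand of DCC and the UNC5 receptors (ENSMUSG00000020902, chromosome 11, 68100190 to 68291662, minus strand, GRCm39). Its level was 42.1, 43.2 and 55.1 CPM in cre+ replicates 1 to 3, against 30.3, 22.8, 29.0 and 32.7 CPM in cre- replicates 1 to 4. Every cre+ library lay above every cre- library, and the highest was cre+ replicate 3. The means were 46.8 ± 7.20 CPM in cre+ (SD, n = 3) and 28.7 ± 4.21 CPM in cre- (SD, n = 4), a fold of 1.63. In edgeR the adjusted p of 0.0939, a value shared by the lowest genes of the whole table, did not pass, while DESeq2 gave 0.00272. Ntn1 was the 1 member that DESeq2 called whichever library was left out, with log2 fold changes of 0.59 to 0.78 and adjusted p of 0.00143 to 0.0345. Beside it, the sum of 10 fibroblast markers was 546, 977 and 1060 CPM in cre+ replicates 1 to 3 and 355 to 527 CPM in cre- libraries, and that of 10 mural markers was 614 to 870 CPM in cre+ and 409 to 589 CPM in cre- libraries. The sum of 10 astrocyte markers was 1572 to 1773 CPM in cre+ and 902 to 1217 CPM in cre- libraries. The part of these cell types and of the endothelial markers in the Ntn1 level was not tested. The noncoding gene Gm31954 overlaps exons of Ntn1 on the opposite strand, and with no strand setting given for the counts its reads cannot be told apart.

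Ntn4 and Ntn3 did not pass either test. Ntn4 encodes netrin-4, which binds the laminin gamma 1 chain, and was at 30.8, 23.9 and 24.6 CPM in cre+ libraries and 25.0, 19.2, 15.2 and 19.6 CPM in cre- libraries. The genotypes overlapped through cre- replicate 1, and the means of 26.5 ± 3.78 CPM in cre+ (SD, n = 3) and 19.8 ± 4.03 CPM in cre- (SD, n = 4) gave a log2 fold change of 0.42 ± 0.18 (SE) with adjusted p of 0.238 in edgeR and 0.158 in DESeq2. Without cre- replicate 1 DESeq2 called Ntn4 higher, with an adjusted p of 0.0431 and a log2 fold change of 0.57. Ntn3, a netrin that binds the same receptors as netrin-1, was lower still, at 10.6, 8.61 and 10.1 CPM in cre+ and 13.4, 12.8, 9.16 and 9.60 CPM in cre- libraries, which overlapped. Its log2 fold change was -0.21 ± 0.20 (SE), with adjusted p of 0.606 in edgeR and 0.562 in DESeq2. The gene Tbc1d24 reaches exons of Ntn3 on the same strand, so that the counts of Ntn3 are uncertain. Whether exons of Tbc1d24 overlap those of Ntn3 was not examined. Per kilobase of exon, Ntn1 made up 39.1% to 50.3% of the 3 secreted netrins in cre+ and 31.9% to 43.7% in cre- libraries, so that their shares overlapped, and Ntn3 made up 11.4% to 12.3% in cre+ and 15.4% to 22.5% in cre- libraries, without overlap.

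The membrane-anchored netrins were called in neither test, and their libraries differed in how far they spread. Ntng2, which encodes netrin-G2, was at 15.5, 14.1 and 13.6 CPM in cre+ and 25.3, 16.5, 18.8 and 18.3 CPM in cre- libraries. All cre+ libraries lay below all cre- libraries, by as little as 15.5 against 16.5 CPM. The log2 fold change was -0.45 ± 0.17 (SE), with adjusted p of 0.195 in edgeR and 0.102 in DESeq2, and Ntng2 was called lower by DESeq2 when counts were scaled by library totals. The noncoding gene 6530402F18Rik overlaps an exon of Ntng2 on the same strand, so that the counts of Ntng2 are uncertain as well. Ntng1, which encodes netrin-G1, was at 5.13, 5.44 and 16.8 CPM in cre+ and 9.89, 18.6, 13.1 and 6.72 CPM in cre- libraries. The third cre+ library alone lay among the upper cre- values, and the spread within each genotype exceeded the difference of means. Over all 7 libraries its log2 fold change was -0.40 ± 0.49 (SE) with an adjusted p of 0.703 in edgeR. Without cre+ replicate 3, DESeq2 called Ntng1 lower, with a log2 fold change of -1.18 and an adjusted p of 0.0344. Lrrc4c, the partner of netrin-G1, averaged 12.1 ± 6.24 CPM in cre+ (SD, n = 3) and 25.6 ± 12.8 CPM in cre- (SD, n = 4), and Lrrc4, the partner of netrin-G2, averaged 10.2 ± 4.46 CPM in cre+ (SD, n = 3) and 16.02 ± 6.75 CPM in cre- (SD, n = 4). DESeq2 gave them adjusted p of 0.0877 and 0.273, and both were singled out after their values had been seen. Lrrc4c and Lrrc4 were lowest in cre+ replicate 1 (4.95 and 5.11 CPM) and highest in cre- replicate 1 (44.5 and 25.8 CPM). The sum of the pan-neuronal markers was also lowest and highest in these libraries, and the part of neuronal content was not tested.

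The receptors Dcc and Neo1 overlapped between genotypes. Dcc, the receptor that carries attraction to netrin-1, was at 7.97, 16.6 and 15.7 CPM in cre+ and 18.2, 17.2, 19.1 and 16.4 CPM in cre- libraries. The cre- libraries stood close together, and cre+ replicate 1 was far below the other 6. The log2 fold change was -0.40 ± 0.24 (SE), with adjusted p of 0.398 in edgeR and 0.318 in DESeq2. Neo1 was at 63.2, 93.8 and 97.3 CPM in cre+ and 82.3, 63.3, 57.1 and 68.2 CPM in cre- libraries, where cre+ replicate 1 again lay apart from the other cre+ libraries, this time among the cre- values. Its log2 fold change was 0.32 ± 0.18 (SE), with adjusted p of 0.344 in edgeR and 0.278 in DESeq2. Within each library the balance of the pair could be read without scaling between libraries: per kilobase of exon, Dcc made up 9.96%, 13.5% and 12.4% of Dcc and Neo1 together in cre+ and 16.3%, 19.2%, 22.7% and 17.4% in cre- libraries. The Dcc share was lower in every cre+ than in every cre- library, a difference for which no test was run. The library with the lowest share, cre+ replicate 1, also had the lowest pan-neuronal sum, and the part of neuronal content was not tested. The size of the share depends on the length used. With the canonical transcript, mean Dcc was at 1.30 CPM per kilobase in cre+ and 1.71 in cre-, beside 19.1 and 15.2 for Neo1.

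Of the UNC5 receptors, which carry repulsion from netrin-1, Unc5b was higher and Unc5a lower in the cre+ libraries by the DESeq2 test. Unc5b (ENSMUSG00000020099, chromosome 10, 60598372 to 60667396, minus strand) was at 161, 84.7 and 111 CPM in cre+ and 80.7, 66.5, 57.1 and 75.4 CPM in cre- libraries. The genotypes did not overlap, but cre+ replicate 2 lay close to cre- replicate 1. The means were 119 ± 38.7 CPM in cre+ (SD, n = 3) and 69.9 ± 10.4 CPM in cre- (SD, n = 4), a fold of 1.70 and a log2 fold change of 0.77 ± 0.21 (SE), with adjusted p of 0.113 in edgeR and 0.0176 in DESeq2. The DESeq2 call was lost without cre+ replicate 1 (log2 fold change 0.49, adjusted p 0.133), without cre- replicate 2 (0.75, adjusted p 0.0766) and without cre- replicate 3 (0.68, adjusted p 0.0803). The highest Unc5b library, cre+ replicate 1, was also that with the highest endothelial sum, 22785 CPM, beside 16436 and 15845 CPM in the other cre+ libraries and 10552, 10519, 10764 and 14597 CPM in cre- replicates 1 to 4. The part of these cells in the Unc5b level was not tested.

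Unc5a (ENSMUSG00000025876, chromosome 13, 55096518 to 55153833, plus strand) was at 5.67, 18.4 and 18.1 CPM in cre+ and 42.6, 30.9, 27.3 and 21.5 CPM in cre- libraries. The genotypes did not overlap, and the cre- libraries themselves covered a wide range. The means were 14.1 ± 7.26 CPM in cre+ (SD, n = 3) and 30.6 ± 8.91 CPM in cre- (SD, n = 4), a fold of 0.46 and a log2 fold change of -1.12 ± 0.41 (SE), the largest in size of the 10 genes, with adjusted p of 0.188 in edgeR and 0.0396 in DESeq2. The DESeq2 call was lost without cre+ replicate 1 (log2 fold change -0.74, adjusted p 0.0869), cre- replicate 1 (-0.91, adjusted p 0.115), cre- replicate 2 (-1.11, adjusted p 0.111) or cre- replicate 3 (-1.17, adjusted p 0.0775). The pan-neuronal markers summed to 1250, 2157 and 2438 CPM in cre+ replicates 1 to 3 and to 4029, 2893, 3101 and 2383 CPM in cre- replicates 1 to 4, so that the lowest and the highest Unc5a library were also the lowest and the highest in these markers. The part of neuronal content in the Unc5a level was not tested. The genes Hk3 and Gm31313 reach exons of Unc5a on the opposite strand, and their reads cannot be told apart.

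**Figure D2:**
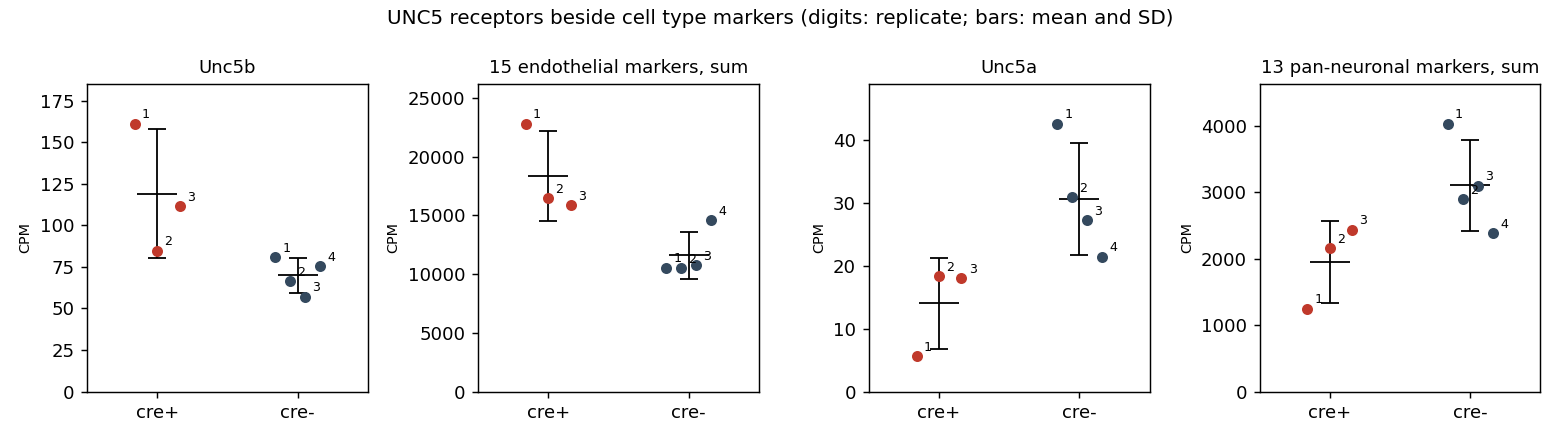
CPM (vertical axes, from 0) of Unc5b, the sum of 15 endothelial markers, Unc5a and the sum of 13 pan-neuronal markers in the 3 cre+ (red) and 4 cre- (dark blue) libraries, with digits for the replicate and bars for the mean and SD. The library cre+ replicate 1 is the highest for Unc5b (161 CPM) and the endothelial sum (22785 CPM) and the lowest for Unc5a (5.67 CPM) and the pan-neuronal sum (1250 CPM).

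Unc5c, the third UNC5 receptor, had the same mean in both genotypes, 11.5 ± 5.04 CPM in cre+ (SD, n = 3) and 11.5 ± 3.95 CPM in cre- (SD, n = 4). Its libraries were at 6.97, 10.6 and 16.9 CPM in cre+ and 17.2, 10.99, 8.16 and 9.68 CPM in cre-, which overlapped, and the edgeR log2 fold change had an SE of 0.34. Within the libraries, per kilobase of exon, Unc5a made up 3.90%, 19.6% and 15.3% of the 3 UNC5 receptors in cre+ and 36.5%, 34.0%, 34.8% and 24.2% in cre- libraries. Unc5b exceeded Unc5a by 24.3, 3.94 and 5.28 times per kilobase in cre+ and by 1.62, 1.84, 1.79 and 3.01 times in cre- libraries. Unc5b was the higher of the pair in all 7 libraries, and the ratio was higher in every cre+ than in every cre- library, which follows from the choice of the called genes and was not tested.

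**Figure D3:**
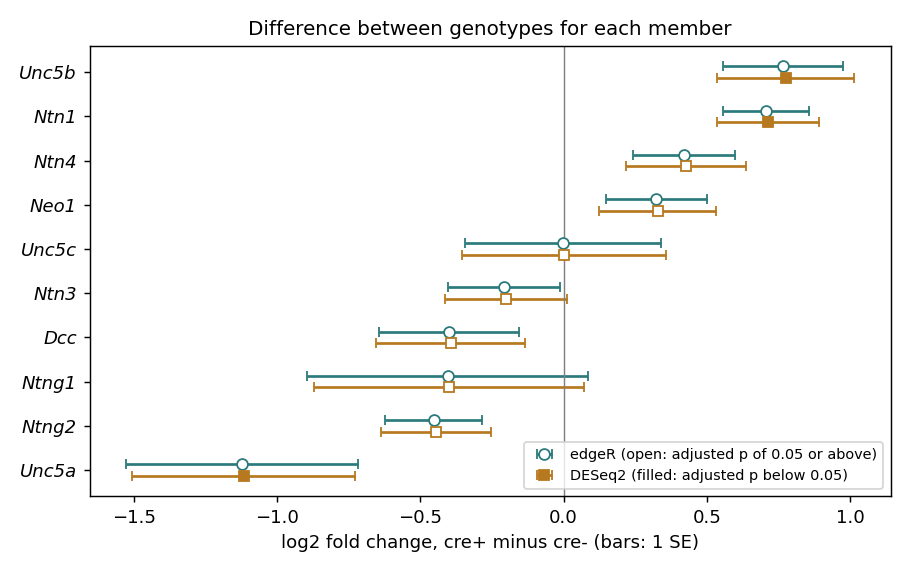
Log2 fold change (horizontal axis, cre+ minus cre-) of each of the 10 genes in edgeR (circles) and DESeq2 (squares), with bars of 1 SE and filled symbols for an adjusted p below 0.05. The tools differ little in the estimates, and the filled symbols are the DESeq2 values of Unc5b, Ntn1 and Unc5a.

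The calls of these 3 genes rested on single libraries to an unequal degree. Leaving out each of the 7 libraries in turn, DESeq2 called Ntn1 in 7, Unc5b in 4 and Unc5a in 3 of the fits. The direction of all 3 was kept in each of these fits, with log2 fold changes of 0.49 to 0.98 for Unc5b and -1.36 to -0.74 for Unc5a.

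**Figure D4:**
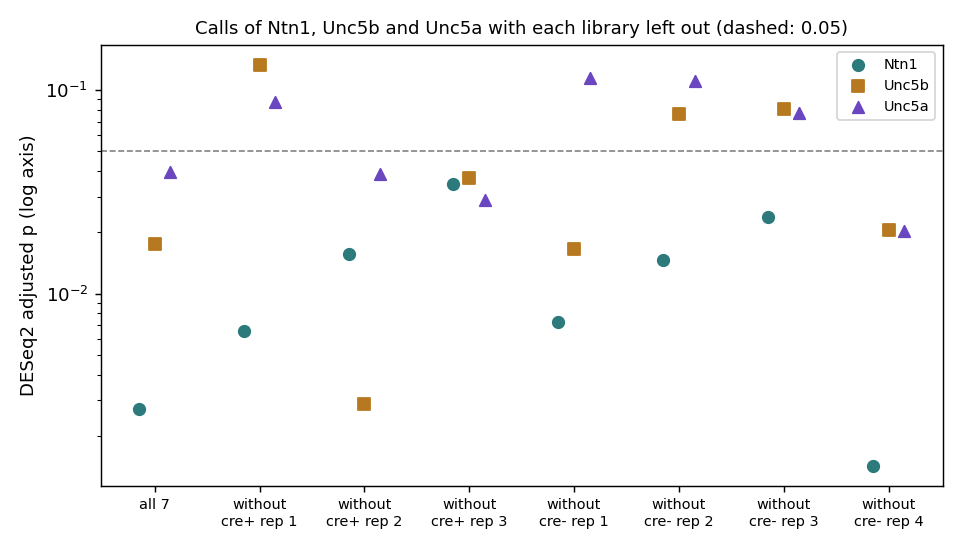
DESeq2 adjusted p (vertical log axis, dashed line at 0.05) of Ntn1, Unc5b and Unc5a with all 7 libraries and without each library in turn (horizontal axis). Ntn1 stays below the line throughout (highest 0.0345), while Unc5b lies above it in 3 fits and Unc5a in 4.

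Levels can be set side by side between genes only per length. Per kilobase of all annotated exons, Unc5b was the most abundant of the 10, at 18.9 ± 6.15 CPM per kilobase (SD, n = 3) in cre+ and 11.1 ± 1.65 CPM per kilobase (SD, n = 4) in cre-, and in neither genotype did its libraries overlap those of the next gene, Neo1. Neo1, at 7.32 in cre+ and 5.85 CPM per kilobase in cre-, was followed in cre+ by Ntn1 (7.14) and Ntn4 (6.84), whose libraries overlapped, and then by Ntng2 (3.62). In cre- the libraries of Neo1, Unc5a (5.67), Ntn4 (5.11), Ntng2 (4.96) and Ntn1 (4.37) overlapped from each to the next. By its mean, Unc5a therefore stood beside Neo1 in cre- but, at 2.61 CPM per kilobase, between Ntng2 and Ntn3 (1.87) in cre+. The cre+ libraries of Unc5a were at 1.05, 3.41 and 3.35 CPM per kilobase in replicates 1 to 3. Only replicate 1 lay below those of Ntn3 (1.65 to 2.02), and replicates 2 and 3 lay just below those of Ntng2 (3.42 to 3.90). The lowest levels were those of Ntng1 (1.11 in cre+ and 1.47 in cre-), Dcc (1.02 in cre+ and 1.34 in cre-) and Unc5c (0.60 in both). The order depends on the length used. With the canonical transcript, an alternative chosen after the levels had been seen, Neo1 was at 19.1 CPM per kilobase in cre+, close to Unc5b at 20.2, and at 15.2 in cre-, above Unc5b at 11.8 and Ntng2 at 12.4.

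**Figure D5:**
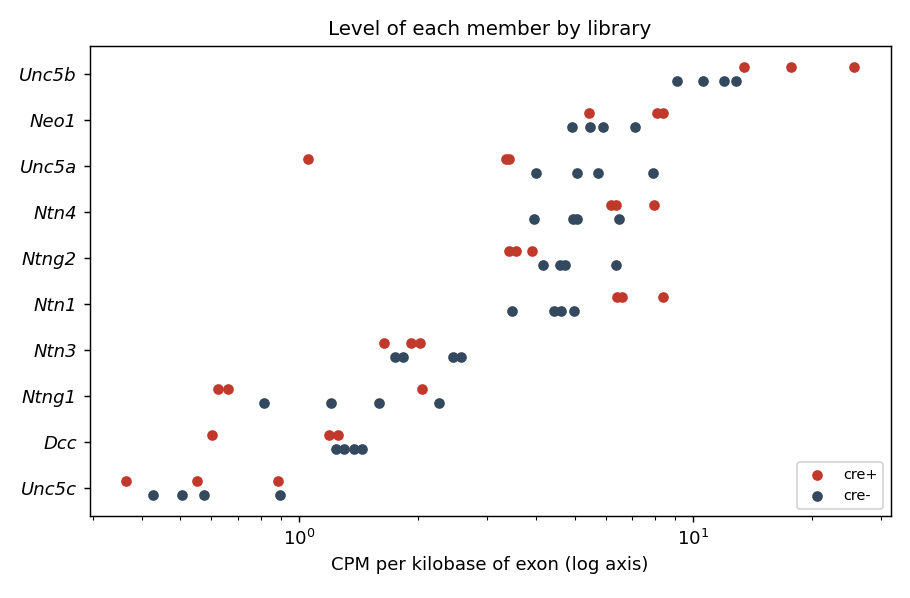
CPM per kilobase of annotated exon (horizontal log axis) of each of the 10 genes in the 3 cre+ (red) and 4 cre- (dark blue) libraries, 1 point per library. Unc5b is the highest gene in both genotypes, and Unc5a lies among Neo1, Ntn4 and Ntng2 in cre- but at 1.05 to 3.41 CPM per kilobase in cre+.

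Of 45 further genes of the netrin pathway, DESeq2 called 7 higher and 5 lower, and edgeR called 0 (11 were higher and 8 lower at an unadjusted p below 0.05). Over all genes, DESeq2 called 6.70% higher and 5.48% lower, and the unadjusted edgeR shares were 10.2% and 9.75%. The median log2 fold change of the 45 genes was -0.13. Among 5 other ligands the 1 call was Draxin, a secreted protein that binds netrin-1 and DCC, which fell to 51.1 ± 8.31 CPM (SD, n = 3) in cre+, against 75.2 ± 2.73 CPM (SD, n = 4) in cre-, with a DESeq2 adjusted p of 0.00367. The libraries of Draxin did not overlap, at 41.8, 53.6 and 57.8 CPM in cre+ and 73.1 to 79.2 CPM in cre-. Of the further members of both families, Ntn5 was at 0.41 to 1.74 CPM in cre+ and 0.99 to 2.53 CPM in cre- libraries, and Unc5d, the fourth UNC5 receptor, was at 3.56 to 11.3 CPM in cre+ and 8.16 to 16.1 CPM in cre- libraries. Neither was called, and both were singled out as relatives of the 10 genes.

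Among 14 other receptors and ligand partners, 3 were called higher and 2 lower by DESeq2, beside 6.70% and 5.48% of all genes. Those called higher were the integrin chains Itga6 (450 ± 73.5 CPM in cre+ and 266 ± 43.1 CPM in cre-, adjusted p 0.00118) and Itga3 (72.4 ± 2.50 CPM in cre+ and 54.8 ± 5.73 CPM in cre-, adjusted p 0.0191), which can bind netrin-1, and Lamc1 (148 ± 19.7 CPM in cre+ and 89.6 ± 9.26 CPM in cre-, adjusted p 0.000146), the laminin chain to which netrin-4 binds. Those called lower were Robo3 and Dscaml1. Robo3, which in mammals acts with DCC in commissural axons, averaged 6.34 ± 3.57 CPM in cre+ and 15.1 ± 2.88 CPM in cre- (adjusted p 0.0286), and Dscaml1, a relative of the netrin receptor DSCAM, averaged 59.8 ± 14.0 CPM in cre+ and 84.9 ± 7.26 CPM in cre- (adjusted p 0.0451). These errors are SD with n = 3 in cre+ and n = 4 in cre-. All 5 genes were without overlap between genotypes, Dscaml1 only by 75.5 CPM in cre+ replicate 3 against 75.8 CPM in cre- replicate 4. As they were picked by their DESeq2 call in the same libraries, this adds no support. Of all 14, 4 were higher and 2 lower without overlap, beside 8.94% and 9.72% of all genes. Itga6 was highest in cre+ replicate 1, at 531 CPM, the library with the highest endothelial sum, whose part in it was not tested. Robo3 and Dscaml1 were lowest in the same library, at 2.24 and 48.6 CPM, and so was Draxin. That library also had the lowest pan-neuronal sum, 1250 CPM, and the lowest sum of 10 immature neuron markers, which was 2194 to 2891 CPM in cre+ and 3252 to 3611 CPM in cre- libraries. The part of neuronal content in these levels was not tested.

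Of 26 signalling and cytoskeletal genes, DESeq2 called 4 higher and 2 lower, beside 6.70% and 5.48% of all genes. Nck1, an adaptor that binds DCC, was higher with a log2 fold change of 0.49 ± 0.11 (SE, edgeR) and an adjusted p of 0.00693 in DESeq2. The GTPase Rac1 (0.35 ± 0.11, adjusted p 0.0305) and 2 exchange factors for Rac, Dock1 (0.64 ± 0.16, adjusted p 0.0108) and Tiam1 (0.51 ± 0.14, adjusted p 0.0223) were higher as well. All 4 genes were highest in cre+ replicate 1 and, among the cre- libraries, highest in cre- replicate 4. The sum of the endothelial markers had the same highest library in each genotype, and the part of these cells in the 4 levels was not tested. The kinase Pak1, an effector of Rac, was lower (-0.79 ± 0.24, adjusted p 0.0231), as was Trim9 (-0.88 ± 0.24, adjusted p 0.0132), a ubiquitin ligase that binds DCC. The levels of Pak1 were 48.2, 76.4 and 84.4 CPM in cre+ and 157, 122, 112 and 88.7 CPM in cre- libraries, without overlap, whereas those of Trim9 overlapped, at 34.8, 45.9 and 54.0 CPM in cre+ and 101, 94.0, 85.3 and 50.6 CPM in cre- libraries. Both were lowest in cre+ replicate 1 and highest in cre- replicate 1, as Unc5a and the pan-neuronal sum were, and the part of neuronal content was not tested.

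The DESeq2 calls of these pathway genes also held to an unequal degree when single libraries were left out. The number of all genes called in those fits varied as well, from 755 to 2258. Of the 7 fits without 1 library, Itga6, Lamc1 and Draxin were called in all 7. Dock1 was called in 5 (lost without cre+ replicate 1 or cre- replicate 3), and so was Robo3 (lost without cre- replicate 2 or 3). Nck1 was called in 4 (lost without cre+ replicate 1, cre+ replicate 2 or cre- replicate 2). Trim9 was called in 3, only without cre+ replicate 3, cre- replicate 1 or cre- replicate 4. The other 5 were called in 2 fits each: Rac1, Pak1 and Dscaml1 only without cre+ replicate 3 or cre- replicate 4, Tiam1 only without cre+ replicate 2 or cre- replicate 4, and Itga3 only without cre- replicate 1 or cre- replicate 4. Rac1, Tiam1, Nck1 and Itga3 were called neither with counts scaled by library totals nor with the replicate number as a block. Draxin and Dscaml1 were called with library totals but not with the block.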

How the data were processed

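Poly(A) RNA of 7 neuron isolates was sequenced as paired reads. The study's methods and the submitters' notes name fastp (trimming), FastQC (quality), STAR (alignment to GRCm39), SAMtools (removal of poor alignments), StringTie (counting per gene) and DESeq2 (testing) as the tools of the authors. The sources used here give no tool version, annotation release or strand setting. The deposited values used are whole-number counts per gene, 46382 rows per file, of which 49 repeated symbols were dropped. The authors' normalized files were not used. Column headers carry codes of unknown meaning, and a batch they might mark cannot be told apart from genotype.

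Counts were tested in R 4.3.3 with edgeR 4.0.16 (quasi-likelihood, TMM factors, filterByExpr, robust, genotype as the single term), with Benjamini-Hochberg adjustment over 21542 genes, as the main test. DESeq2 1.42.0, with its filter set for 0.05, gave an adjusted p to 16345 genes and was used as a second call rule, named wherever used. The tests were run on simulated counts with known fold changes, where the sign and the median error of the estimates were checked. The simulation held no shift in cell content, so it does not check the calls against one. CPM use TMM factors, and log2 fold changes are cre+ minus cre-. Replicates are littermate mice, so p-values measure the spread between animals. Alternatives were RLE, library-total and upper-quartile scaling, other filters, limma-voom 3.58.1, leaving out each library and a replicate block. Lengths and promoters came from GENCODE M39 on GRCm39, which held 35305 of 35506 gene identifiers.

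The genes, lists and tests were chosen with earlier results of these data known. Named genes are the 10 members, pathway genes called by either tool (up to 10 per list, otherwise the 2 with the smallest p), the 5 genes most correlated with Ntn1 and the first 3 markers of each cell type, and exceptions are marked.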

Additional observations from a re-analysis of the deposited data

Results flagged for a closer look

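Of 32 groups of 4 libraries examined, 2 held a cre- library far from the others, and chance alone gives about 1 in 20. In both, the library was cre- replicate 4. The summed level of the 15 endothelial markers was 14597 CPM in it, against 10519 to 10764 CPM in the other cre- libraries. Lamc1, the laminin chain that binds netrin-4, was at 103 CPM in it, against 83.9 to 86.2 CPM in the other cre- libraries. None of the 10 netrin and receptor genes had such a library among the cre- samples, and the 3 cre+ libraries were too few for this comparison.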

How the results depend on the processing

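In 150 refits (15 alternatives for each of the 10 genes) the direction was kept in 145. The other 5 were all of Unc5c, whose log2 fold change was near 0: it was 0.000597 with DESeq2, 0.0022 with RLE factors, and -0.39 to 0.26 over the fits without 1 library. edgeR called 0 of the 10 genes, and limma-voom also called 0, under every alternative run. Scaling by library totals shifted the median of all genes to -0.16 from -0.04. With it, DESeq2 called 2 of the 10 genes lower (1 with its own factors), and 3 pathway genes higher and 10 lower (7 and 5 with its own factors). The share of all genes called with library totals, or with the replicate block below, was not counted. The calls under these settings therefore cannot be set beside that share. With 1 library left out, DESeq2 called 1 to 3 of the 10 genes higher and 0 to 2 lower, and 2 to 8 pathway genes higher and 1 to 8 lower. Over all genes it called 755 to 2258 in these fits. The labels do not say whether equal replicate numbers mark pairs. In their deviations from the group mean, same-numbered libraries correlated at -0.03, -0.0036 and 0.09, and different-numbered libraries at -0.11 to 0.16. So few values cannot settle whether the numbers are a pairing. With a replicate block, DESeq2 called Ntn1 (adjusted p 0.00807), Unc5b (0.0108) and Unc5a (0.0238), with 3 pathway genes higher and 3 lower, while edgeR gave Ntn1 0.158. The cause of these differences was not tested. Of 20 levels per kilobase, 8 moved by more than 1 SD with the canonical transcript's length.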

Other observations

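The genes whose levels ran most like that of Ntn1 over the 7 libraries were Gstt1 (Pearson r 0.99), Hivep1 (0.99), Cyb5r3 (0.99), TrnC (0.98) and Crim1 (0.98), out of 15985 genes with a mean of at least 1 CPM. These values are a description over libraries that share their genotype groups, and no p is given. Gstt1, a glutathione transferase, was at 10.8, 12.1 and 15.4 CPM in cre+ and 7.86, 5.98, 7.52 and 8.05 CPM in cre- libraries. Crim1, a transmembrane protein that binds bone morphogenetic proteins, was at 121, 132 and 149 CPM in cre+ and 89.1, 67.9, 76.6 and 88.9 CPM in cre- libraries. Both were highest in cre+ replicate 3 and lowest in cre- replicate 2, as Ntn1 was. Among the netrins and receptors the closest to Ntn1 were Unc5b (r = 0.71, rank 2114), Neo1 (0.67, rank 2572) and Ntn4 (0.60, rank 3242). By these ranks, many genes outside the netrins and receptors ran closer to Ntn1.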
